A study of Arabidopsis thaliana with 4 samples.

Results

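The genes described here are 10 loci of Arabidopsis thaliana that carry the abscisic acid signal from the kinase step to transcription: the kinases SnRK2.2 (AT3G50500), SnRK2.3 (AT5G66880) and SnRK2.6 (AT4G33950, also OST1), the bZIP transcription factors ABF1 (AT1G49720), ABF2 (AT1G45249), ABF3 (AT4G34000), ABF4 (AT3G19290) and ABI5 (AT2G36270), the B3 factor ABI3 (AT3G24650) and the AP2 factor ABI4 (AT2G40220). They were chosen by locus, out of 23498 loci listed in at least 1 library. Of the 10, 8 had a value in all 4 libraries, and ABI3 and ABI4 were listed in none.

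Abscisic acid is the hormone of drought response and seed dormancy. When it binds its PYR/PYL receptors, these hold back the clade A PP2C phosphatases, which otherwise keep the SnRK2 kinases switched off. The freed kinases phosphorylate ion channels of the guard cell and the ABF and ABI5 factors, which bind abscisic acid response elements in target promoters. ABH1, which with CBP20 forms the cap-binding complex of the nucleus, takes its name from the hypersensitivity of its mutant to this hormone.

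The values come from global mapping of uncapped transcripts (GMUCT), which sequences polyadenylated RNA that has lost its cap and so reads intermediates of decay. For every gene a library lists a single co-translational RNA decay index, a unitless ratio. The sources used here give no formula for it, so values are printed as deposited, and the meaning of a value above or below 1 is not stated. Pairs of values are given with replicate 1 first. The abh1 group is 2 libraries of a loss-of-function mutant of ABH1 in the Col-0 ecotype, titled with the numbers 1 and 8, and the Col-0_CHX group is 2 wild-type Col-0 libraries. All 4 are labelled immature inflorescence of plants about 4 weeks old, grown in 16 h light and 8 h dark, and as otherwise untreated, although the wild-type titles carry CHX, which the labels do not spell out. Genotype and the CHX of the title therefore cannot be told apart, and the labels do not say whether replicates were separate plants, so a p-value speaks to the spread among the 4 libraries alone, and that spread may be technical.

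The libraries labelled Col-0_CHX went against their tissue label. Of 8 floral identity genes, 8 were listed in each abh1 library, while 1 of 8 was listed in each Col-0_CHX library (AG in replicate 1 and SEP1 in replicate 2). All 4 guard cell markers were listed in every library, and of 8 seed storage and oil body genes, 1 or 2 were listed in each. Lists were longer for abh1 (22495 and 22492 loci) than for Col-0_CHX (18321 and 18215 loci), and 17049 loci were in every list. The reads behind an index are not given, so with depth unknown no counting interval was made. Simple ratios that recur exactly at many loci were taken as a sign of low depth. A value found at over 10 loci of the same library (a repeated value) made up 27.2% and 29.3% of the abh1 lists and 43.6% and 42.7% of the Col-0_CHX lists. The abh1 pair had medians of 1.15 and 1.14 over the 17049 loci, and the Col-0_CHX pair 1.37 and 1.29. For ABH1 itself the abh1 pair read 1.01 and 1.19 and the Col-0_CHX pair 1.86 and 1.62, and a ratio of decay products does not check the genotype.

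The mean index of ABF1, ABF2 and ABF4 was 2.03 to 2.10 in Col-0_CHX and 1.02 to 1.14 in abh1, with smaller differences for the kinases and ABF3. The ABF1 mean in Col-0_CHX came from values of 1.74 and 2.47. The median over the 8 listed genes was 1.16 and 1.11 in the abh1 libraries, near the median of all loci, and 1.6 and 1.64 in the Col-0_CHX libraries, above it. Of the 8, 7 had a lower mean in abh1, where 72.2% of all loci did. Both abh1 libraries lay below both Col-0_CHX libraries for 6 of the 8, against 45.2% of all loci. In bulk tissue a different mix of cells and a different index within each cell cannot be told apart. A difference in tissue would split the libraries as the groups do, so its part cannot be told apart from genotype and CHX and was not tested.

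**Figure D1:**
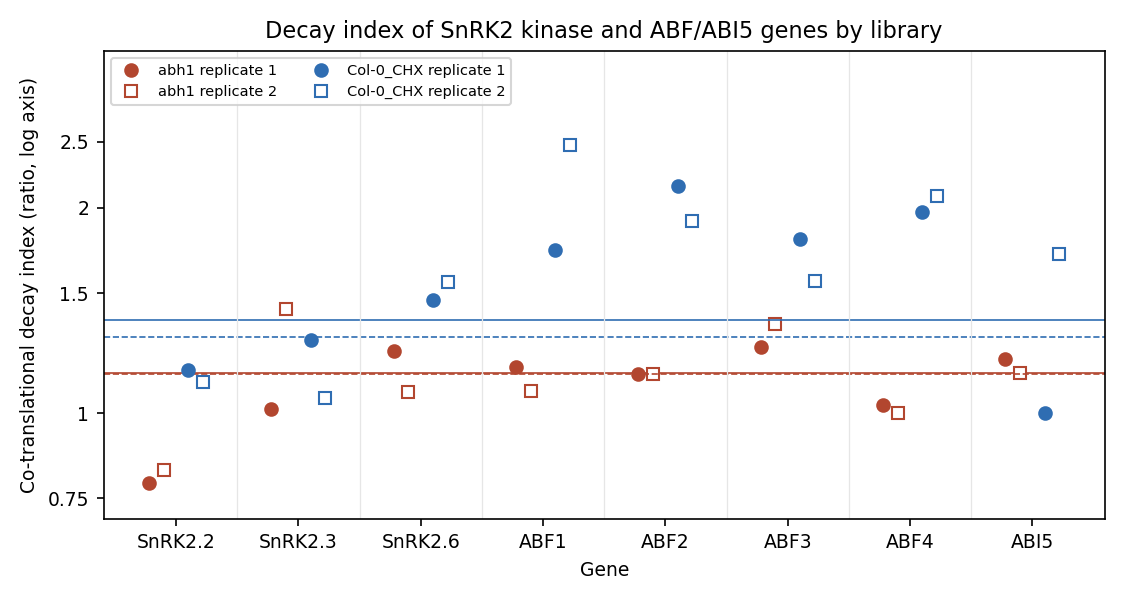
Co-translational decay index (ratio, log axis) of the 8 listed genes, with 1 point per library and horizontal lines at each library's median over the 17049 loci listed in all 4 libraries. ABF1, ABF2 and ABF4 lie between 1.00 and 1.17 in abh1 (red) and between 1.74 and 2.47 in Col-0_CHX (blue), while SnRK2.3 and ABI5 overlap between the groups.

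Among the kinases, SnRK2.2 had the lowest index of the 8 genes in both abh1 libraries. It acts together with SnRK2.3 in seed germination and seedling growth. Its index was 0.791 and 0.825 in abh1 and 1.16 and 1.11 in Col-0_CHX, with no overlap between the groups. The log2 difference, abh1 minus Col-0_CHX, was -0.49 ± 0.13 (SE, 2 libraries per group), with Col-0_CHX 1.40-fold higher, with a limma adjusted p of 0.206 over all 17049 loci, and it was -0.27 with each library centred. Within its own library SnRK2.2 exceeded 10.1% and 11.7% of loci in abh1 and 31.1% and 31.0% in Col-0_CHX, so it sat in the lower part of every library. Such positions are over each library's own list, 22495 and 22492 loci in abh1 and 18321 and 18215 in Col-0_CHX, not over the shared loci.

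SnRK2.3, the closest partner of SnRK2.2, showed no steady difference. Its index was 1.01 and 1.42 in abh1 and 1.28 and 1.05 in Col-0_CHX. The replicates disagreed more than the groups did, and the gap between the abh1 libraries (0.49 on the log2 scale) was wider than that of 87.2% of loci. The log2 difference was 0.050 with a 95% interval of -0.67 to 0.77, so a change of the size seen for SnRK2.2 lies inside the interval. Its sign turned when abh1 replicate 2 was left out (-0.19) and when Col-0_CHX replicate 2 was left out (-0.093). SnRK2.2 lay below SnRK2.3 by 0.36 and 0.79 on the log2 scale in the abh1 libraries, and differed from it by -0.14 and 0.077 in the Col-0_CHX libraries. These kinases are close paralogs, and how reads shared between them were counted is not given.

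SnRK2.6, the kinase that closes stomata through the guard cell anion channel SLAC1, read 1.23 and 1.07 in the abh1 pair and 1.46 and 1.56 in the Col-0_CHX pair. The groups did not overlap, but the log2 difference of -0.39 ± 0.15 (SE) did not pass limma's test (adjusted p = 0.281), and its 95% interval ran from -0.84 to 0.053. The value 1.56 in Col-0_CHX replicate 2 was shared by 31 loci of that library. Relative to the median of all loci the difference was -0.16, and it was -0.17 with each library centred and -0.12 under quantile normalization. In each library's own list SnRK2.6 lay above 65.7% and 39.1% of loci in abh1 and above 58.8% and 71.5% in Col-0_CHX.

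ABF4, a bZIP factor of drought and salt response that is also called AREB2, had the largest difference of the 8 genes in the fit over all loci. Its index was 1.03 and 1.00 in abh1 and 1.97 and 2.08 in Col-0_CHX. Replicates lay close together in both groups, with gaps of 0.038 and 0.076 on the log2 scale, and every pairing of an abh1 with a Col-0_CHX library gave a difference between -0.94 and -1.05. The fitted difference was -1.00 ± 0.13 (SE), a 2.00-fold higher index in Col-0_CHX and -0.77 relative to the median of all loci. Only 7.76% of loci had a more negative difference. The position of ABF4 in each library's own list differed as well, from above 31.1% and 28.3% of loci in abh1 to above 82.7% and 88.7% in the shorter Col-0_CHX lists.

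ABF4 did not pass limma's test over the 17049 loci (adjusted p = 0.167), where 0% of loci did. By unadjusted p under 0.05, 2938 loci were lower (17.2%) and 484 higher (2.84%) in abh1. ABF4, ABF2, ABF1 and SnRK2.2 were the 4 of the 8 genes below that unadjusted limit, all lower in abh1. That count was 2 (ABF2 and ABF4) when each library was centred, and 3 with the replicate block (without SnRK2.2) or quantile normalization (without ABF1). The share of all loci below the limit was not counted under these settings, so the 17.2% is not the share for these counts. Over the 6572 loci without a repeated value in any library, 528 loci were called lower in abh1 (8.03%) and 39 higher (0.593%) by limma's test. The 4 genes that this filter kept were SnRK2.2, SnRK2.3, ABF1 and ABF4, and ABF4 was the 1 that fell past the threshold (adjusted p = 0.0383). Of these 4, 3 had a lower mean in abh1 (77% of the 6572 loci) and 3 had both abh1 libraries below both Col-0_CHX libraries (54.8%). SnRK2.2 (adjusted p = 0.0568) and ABF1 (adjusted p = 0.0702) did not pass there, nor did SnRK2.3 (adjusted p = 0.895). The ABF4 call was lost without abh1 replicate 1 or without abh1 replicate 2 (0 loci called in each case), when each library was centred, and when only values found at over 20 loci counted as repeated.

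ABF2, also called AREB1, and ABF1 showed differences of similar size to ABF4. The index of ABF2 was 1.14 and 1.14 in abh1 and 2.15 and 1.92 in Col-0_CHX. Its log2 difference was -0.83 ± 0.14 (SE), a 1.78-fold higher index in Col-0_CHX, with a limma adjusted p of 0.167 over all loci. Quantile normalization took it to -0.46. The value 1.92 was shared by 21 loci of its library, so ABF2 was not among the loci without repeated values. ABF2 exceeded 50.3% and 51.2% of loci in abh1 and 87.1% and 85.0% in Col-0_CHX.

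ABF1 read 1.17 and 1.08 in the abh1 pair and 1.74 and 2.47 in the Col-0_CHX pair. The groups did not overlap, but the Col-0_CHX libraries were 0.51 apart on the log2 scale, against a median gap of 0.32 over all loci. The log2 difference was -0.88 ± 0.23 (SE), a 1.84-fold higher index in Col-0_CHX, with an adjusted p of 0.198 in limma's fit over all loci, and it was -0.51 under quantile normalization. The interval of -1.56 to -0.20 holds the estimates for ABF2, ABF3 and ABF4.

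ABF3 differed least among the ABF genes. It acts with ABF2 and ABF4 in drought response, and those 3 factors overlap in function. Its index was 1.25 and 1.35 in abh1 and 1.8 and 1.56 in Col-0_CHX, and the value 1.8 was shared by 36 loci. The groups did not overlap. The log2 difference was -0.37 ± 0.16 (SE) with a limma adjusted p of 0.301, and it was -0.15 with each library centred and turned to 0.026 under quantile normalization. ABF3 held a like position in all libraries, above 67.7% and 79.6% of loci in abh1 and 77.5% and 72.1% in Col-0_CHX.

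**Figure D2:**
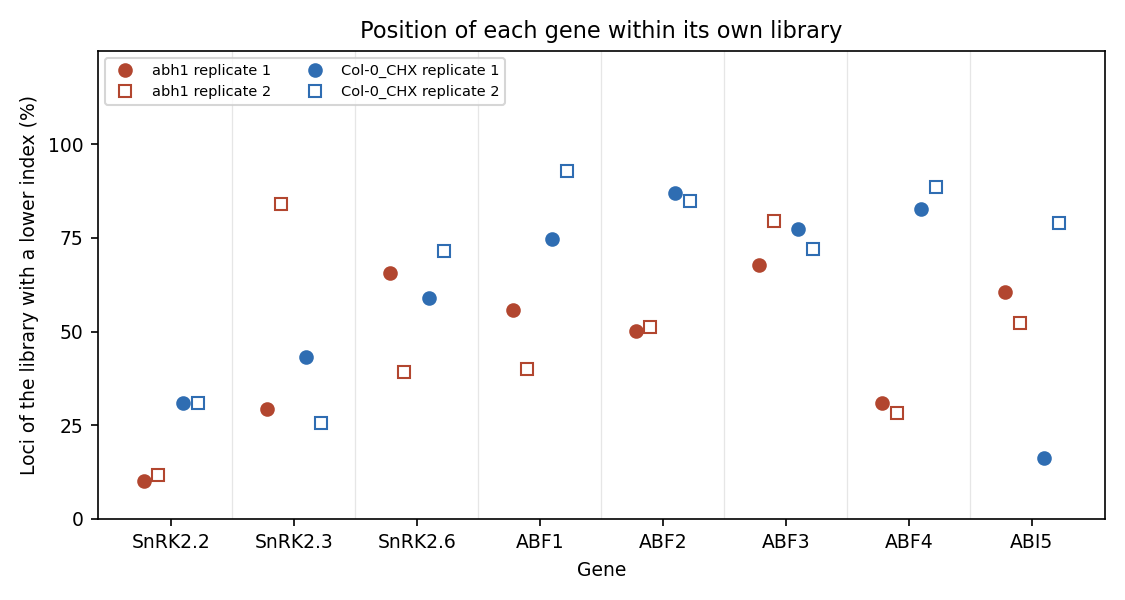
Percent of the loci on a library's own list that had a lower index than the gene, for the 8 listed genes in the 4 libraries (red abh1, blue Col-0_CHX). ABF4 lies at 31.1% and 28.3% in abh1 and at 82.7% and 88.7% in Col-0_CHX, ABF3 stays between 67.7% and 79.6%, and SnRK2.2 is the lowest gene in both abh1 libraries.

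Setting ABF4 against ABF3 within each library leaves out the level of the library but not its spread. The SD of the log2 index across the 17049 loci was 0.400 and 0.404 in abh1 and 0.672 and 0.650 in Col-0_CHX. Gaps between genes therefore tend to be wider in Col-0_CHX. ABF4 lay below ABF3 by 0.28 and 0.43 on the log2 scale in the abh1 libraries, and above it by 0.13 and 0.41 in the Col-0_CHX libraries, so the order of these paralogs turned between the groups. This pair had the largest and the smallest group difference of the ABF genes. The gap of 0.13 in Col-0_CHX replicate 1 rests on an ABF3 value shared by 36 loci. With 2 libraries against 2 an exact two-sided permutation test cannot go below p = 0.333, and the change of order was not tested. ABF4 exceeded SnRK2.2 in every library, by 0.38 and 0.28 in abh1 and by 0.77 and 0.91 in Col-0_CHX.

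ABI5, the bZIP factor that arrests germination in the presence of abscisic acid, read 1.20 and 1.15 in the abh1 pair and 1 and 1.71 in the Col-0_CHX pair. The Col-0_CHX libraries lay on both sides of the abh1 libraries, so the groups overlapped. The value 1 in Col-0_CHX replicate 1 was shared by 468 loci of that library and the value 1.71 in replicate 2 by 26. The log2 difference of -0.16 ± 0.32 (SE) did not pass limma's test (adjusted p = 0.806), and without Col-0_CHX replicate 2 it was 0.23. ABI3 and ABI4, regulators of seed maturation and of sugar and germination responses, had no index to compare.

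**Figure D3:**
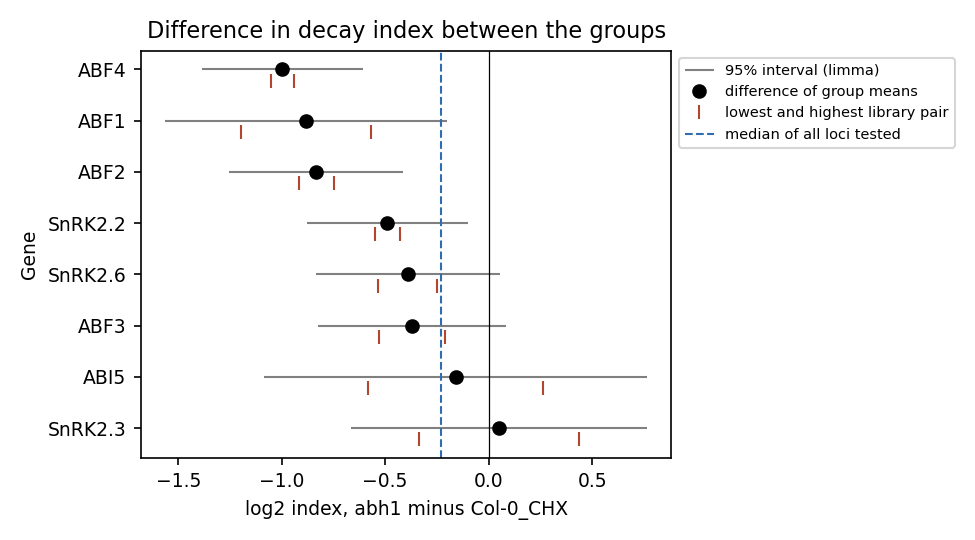
Difference in log2 index, abh1 minus Col-0_CHX, for the 8 listed genes, with the 95% interval of limma's fit over 17049 loci (grey), the lowest and highest difference among library pairs (red ticks) and the median of all loci (dashed, -0.23). The intervals of ABF4, ABF1, ABF2 and SnRK2.2 end below 0, and no gene passed after adjustment over all loci.

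Ordered by mean level, the genes ran in abh1 from SnRK2.2 (0.808 ± 0.024, SD, n = 2) through ABF4 (1.02 ± 0.019), ABF1, ABF2, SnRK2.6, ABI5 and SnRK2.3 to ABF3 (1.30 ± 0.074). The ranges of SnRK2.2 and ABF4 were separate from those of their next higher neighbours, and every other pair of neighbours in that order overlapped. In Col-0_CHX the order was SnRK2.2 (1.13 ± 0.035), SnRK2.3, ABI5, SnRK2.6 (1.51 ± 0.065), ABF3 (1.68 ± 0.17), ABF4 (2.03 ± 0.076), ABF2 and ABF1 (2.10 ± 0.52). There the ranges of SnRK2.6 and ABF3, each against the next higher gene, were the ones that did not overlap, the first by a narrow margin.

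The 3 kinases and the 4 ABF genes occupied separate ranges in the Col-0_CHX libraries, a split that did not hold for every SnRK2 and bZIP gene. ABI5, the other listed bZIP gene of the 8, read 1 in replicate 1, below all 3 kinases, and 1.71 in replicate 2. SnRK2.7 (2.38 and 2.5) and SnRK2.9 (2 and 2) did not lie below the ABF genes. The other SnRK2 genes with values there did. In replicate 1 the 3 kinases ran from 1.16 to 1.46 and the 4 ABF genes from 1.74 to 2.15. In replicate 2 the kinases ran from 1.05 to 1.56 and the ABF genes from 1.56 to 2.47. They met at the boundary, where ABF3 was just above SnRK2.6, whose value was shared by 31 loci of that library. In the abh1 libraries the ranges overlapped, with kinases from 0.791 to 1.23 and ABF genes from 1.03 to 1.25 in replicate 1, and kinases from 0.825 to 1.42 and ABF genes from 1.00 to 1.35 in replicate 2. The mean of the ABF genes exceeded that of the kinases by 0.20 and 0.073 on the log2 scale in abh1 and by 0.56 and 0.70 in Col-0_CHX. The log2 index also spread wider across all loci in Col-0_CHX, and these gaps were not scaled to that spread. These genes are not replicates of a class, and the contrast was not tested.

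The median difference over the 8 genes was -0.44 on the log2 scale, where that over all loci was -0.23. With each library centred on its median these became -0.22 and -0.0088, and 6 of the 8 genes were lower. Centring turned ABI5 to 0.060. Quantile normalization left 5 of the 8 genes lower, with ABI5 at 0.079, ABF3 at 0.026 and a median of -0.29, where that over all loci was 0.0028. The share of all loci lower in abh1 was not counted under either setting, so the 72.2% of the main fit is not the share for these counts.

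Elsewhere in the kinase family, 6 of 7 other SnRK2 genes were listed in all 4 libraries, 4 lower and 2 higher in abh1 (72.2% of all loci lower), with a median of -0.50. None passed limma's test over all loci, and 3, all lower, had an unadjusted p under 0.05 (17.2% of all loci). SnRK2.7 read 0.919 and 0.972 in the abh1 pair and 2.38 and 2.5 in the Col-0_CHX pair, a log2 difference of -1.37 ± 0.14 (SE, limma adjusted p = 0.167). SnRK2.9 read 0.833 and 0.667 against 2 and 2, values of the simple kind that repeats between loci. SnRK2.7 also held a repeated value, so neither gene was among the loci without repeated values. Of the 2 genes of this list without repeated values, 1 (SnRK2.10) fell past limma's threshold over the 6572 loci, where 8.03% did.

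Other group A bZIP factors, the relatives of the ABF genes, were listed in all 4 libraries for 5 of 8 loci. Of these, 3 were lower and 2 higher in abh1 (72.2% of all loci lower), with a median of -0.23, close to that of all loci. The bZIP locus AT5G44080 read 1.14 and 1.08 against 1.68 and 1.52 (limma adjusted p = 0.206), and the flowering factor FD read 1.57 and 1.16 against 1.54 and 1.96 (limma adjusted p = 0.466). Among 5 B3 relatives of ABI3, 3 were listed in all 4 libraries and all 3 were lower, as were 72.2% of all loci. VAL2 (HSL1 in the name table), a repressor of the seed programme, read 1.34 and 0.967 against 2.34 and 2.55. It was 1 of 2 genes of this list without repeated values. There VAL2 fell past limma's threshold (adjusted p = 0.0476), as 8.03% of the 6572 loci did, but not over all loci (adjusted p = 0.173). VAL3 read 1.52 and 1.90 against 3 and 1.5, which overlap.

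Proteins that hold ABI5 in check had a lower mean in abh1 at 5 of 5 loci (72.2% of all loci), with a median of -0.65. None of them passed limma's test over all loci, 3 had an unadjusted p under 0.05 (17.2% of all loci), and 4 did not overlap between the groups, against 45.2% of all loci. The list holds the ubiquitin ligase KEG and the ABI5-binding proteins. AFP3 read 1.22 and 1.10 against 1.60 and 2.05 (limma adjusted p = 0.222). AFP1 read 0.9 and 0.917 against 1.65 and 1.25 (limma adjusted p = 0.226).

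Upstream of the kinases stand the phosphatases and the receptors. Of 9 clade A PP2C genes, 7 were listed in all 4 libraries, all 7 lower in abh1 (72.2% of all loci) and without overlap between the groups (45.2%), and their median was -0.70. By limma's test 0 of them passed over all loci, 6 had an unadjusted p under 0.05 (17.2% of all loci lower), and 3 of the 5 without repeated values fell past the threshold over the 6572 loci (8.03%). HAI2 read 1.16 and 1.20 against 2.01 and 2.08 (limma adjusted p = 0.167), and ABI2 read 1.13 and 1.20 against 1.90 and 1.90 (limma adjusted p = 0.169). A repeated value was present for HAI2 but not for ABI2. Of the 14 PYR/PYL receptor genes, 9 were listed in all 4 libraries, 7 lower and 2 higher, close to the 72.2% of all loci, with a median of -0.21 and 3 lower at an unadjusted p under 0.05 (17.2% of all loci). The receptor PYL9 (RCAR1) read 0.555 and 0.684 against 1.89 and 1.54, and fell past limma's threshold over the loci without repeated values (adjusted p = 0.0383). PYL8 (RCAR3) read 0.871 and 0.75 against 1.29 and 1.21.

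Downstream, the median of the target genes lay near that of all loci. Of 16 abscisic acid responsive genes, 13 were listed in all 4 libraries, 9 lower and 4 higher in abh1, with a median of -0.18 and 3 lower at an unadjusted p under 0.05. Both counts were near the shares of all loci, 72.2% and 17.2%. The homeobox gene HB-12 read 1.05 and 1.09 against 2.52 and 2.90, a log2 difference of -1.34 ± 0.15 (SE, limma adjusted p = 0.167), and LEA4-5, a late embryogenesis protein, read 1.02 and 1.18 against 1.88 and 1.75. Of the 4 membrane proteins that SnRK2.6 acts on, 2 were lower and 2 higher. The potassium channel KAT1 read 1.39 and 1.37 against 1.63 and 1.88. SLAC1 (OZS1 in the name table) read 0.9 and 0.714 against 1.2 and 7.5, a mean log2 difference of -1.90 ± 1.00 (SE) whose replicates in Col-0_CHX lie far apart. HB-12, LEA4-5, KAT1 and SLAC1 were not among the loci without repeated values.

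**Figure D4:**
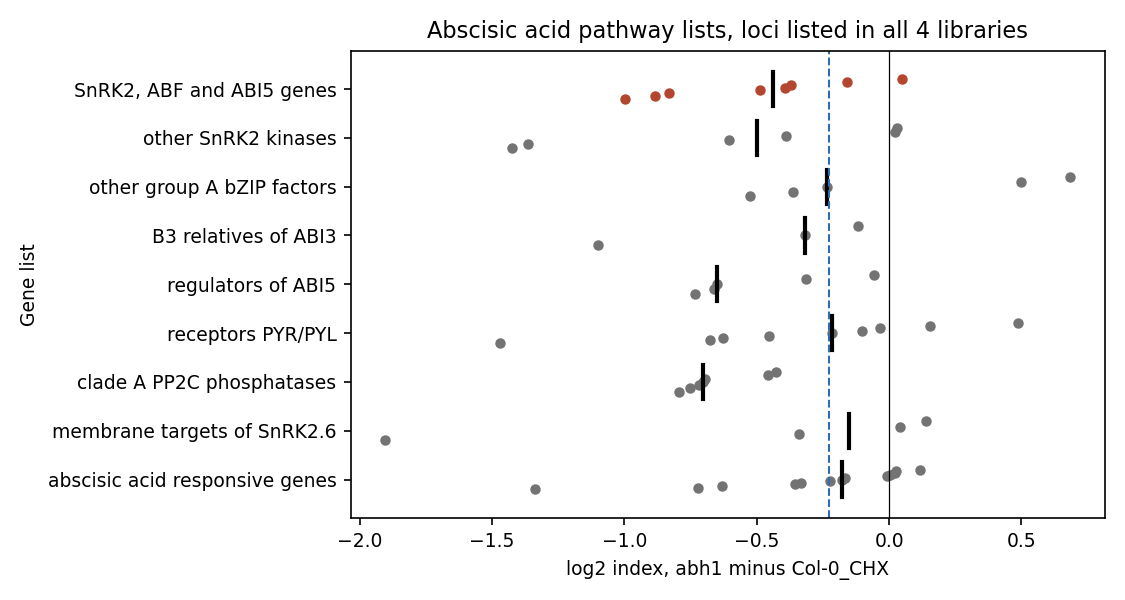
Difference in log2 index, abh1 minus Col-0_CHX, for each locus listed in all 4 libraries (points) of the SnRK2, ABF and ABI5 genes (red) and of 8 other abscisic acid lists (grey), with list medians (black bars) and the median of all loci (dashed, -0.23). The 7 phosphatase genes all lie below 0 with a median of -0.70, while the responsive genes have a median of -0.18.

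Among 7710 other loci with a symbol and a value in all 4 libraries, those nearest to SnRK2.6 by Euclidean distance of the log2 index over the 4 libraries were BCA5 (0.053), ELI3-1 (0.083) and TAF7 (0.087). Those nearest to ABF4 were SIGF (0.077), HB-2 (0.10) and CRL (0.11). SIGF read 1.05 and 0.972 in the abh1 pair and 2.01 and 2.01. in the Col-0_CHX pair With 4 libraries in 2 groups, such closeness reflects 1 contrast and its level.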

How the data were processed

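Per the labels' protocols, polyA-selected RNA was sequenced at 50 nt with strand kept. Per the submitters' processing notes, cutadapt 1.4.2, STAR 2.4.0 and the TAIR10 genome were used. For every library the authors deposited a list of gene models, each with its decay index, a linear ratio. No label or header gives its formula, read minimum or annotation.

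Index values were put on the log2 scale without a pseudocount, since none was 0. Loci listed in all 4 libraries were fitted with limma 3.58.1 in R 4.3.3 (lmFit, eBayes), without covariates, with Benjamini-Hochberg adjustment over all loci tested and a threshold of 0.05. Repeated values were those found at over 10 loci of a library. Python 3.11.15 with numpy 2.4.6, pandas 2.3.3 and matplotlib 3.10.9 did the rest. Symbols came from a RefSeq table of another assembly version, TAIR10.1, which held 23397 of 23498 loci, so no coordinates are given.

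Identical values made up 0.737% (abh1) and 0.736% (Col-0_CHX) of loci shared by replicates, so no library was a copy. The genes, lists and tests were chosen with earlier results of these data known. Named loci were all 10 genes, up to 2 loci per list with the smallest p, ABH1, and the 3 loci nearest to SnRK2.6 and to ABF4. KEG, SnRK2.10, the 2 floral genes listed in Col-0_CHX, EEL, GBF4, AREB3, FUS3, LEC2 and SESA1 are named outside that rule. Alternatives were a replicate block, quantile normalization, centring, single libraries left out, trended or robust fitting, a pseudocount of 0.1, other filters and a threshold of 0.1; combinations with the filter on repeated values and limits of 5 or 20 loci were chosen after seeing the data.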

Additional observations from a re-analysis of the deposited data

How the results depend on the processing

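Over all loci, limma's test called 0 loci under every setting without the filter on repeated values, a threshold of 0.1 and the replicate block included, where the smallest adjusted p were 0.167 and 0.345. The filter gave 567 calls (658 with a limit of 5 loci, 0 with a limit of 20, 0 when centred). Leaving out 1 library gave 0 calls over all loci and 0 to 1957 under the filter: 0 without either abh1 library, 1137 without Col-0_CHX replicate 1 and 1957 without replicate 2. Deviations of same-numbered libraries from their group means had r = -0.0043 over 17049 loci. As each group holds 2 libraries, this value cannot show whether same-numbered libraries shared a preparation. The filtered fit with the replicate block called 216.

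The median over the listed genes was -0.44. It was -0.22 when centred, -0.29 under quantile normalization, -0.69 over the 4 genes without repeated values, also with the replicate block or a limit of 20, and -0.49 over the 3 left by a limit of 5. Without 1 library it ranged from -0.50 to -0.47, and under the filter it was -0.70 and -0.67 without abh1 replicate 1 or 2 and -0.75 and -0.57 without Col-0_CHX replicate 1 or 2. The count of genes lower in abh1 was 7 of 8, and 7 to 8 without 1 library. Because the filter keeps fewer genes, the count was 3 of 4 with it (also centred, with the replicate block or a limit of 20), 2 of 3 with a limit of 5, and 3 to 4 of 4 without 1 library. Shares of all loci lower in abh1 were counted for the main fit (72.2%) and the filtered fit (77%) alone.

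ABF4 was lower in all 20 alternatives and past limma's threshold in 5 (adjusted p 0.0235 to 0.704), SnRK2.2 was lower in 20 and past it in 2 (adjusted p 0.0357 to 0.704), and ABF1 was lower in 19 of 19 and past it in 2 (adjusted p 0.0329 to 0.706). ABF4 was past it with the filter (adjusted p = 0.0383), with a limit of 5 (0.0260), with the filter and replicate block (0.0486), and with the filter without Col-0_CHX replicate 1 (0.0370) or replicate 2 (0.0235). ABF2 and SnRK2.6 were lower in 11 of 11 and past it in 0. SnRK2.3 ranged from -0.19 to 0.29 without 1 library, negative without abh1 replicate 2 (-0.19) and without Col-0_CHX replicate 2 (-0.093), with and without the filter. ABI5 ranged from -0.55 to 0.23 without 1 library, with 0.23 without Col-0_CHX replicate 2, and turned to 0.060 when centred and to 0.079 under quantile normalization, which also turned ABF3 to 0.026. Apart from what the construction of a setting shows (fewer loci, fewer libraries), the cause was not tested. The unknown depth limits every value here.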

Other observations

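Some relatives of these factors, and a seed storage gene, had replicates that lay apart or were listed in only some libraries. EEL, a group A bZIP factor of seeds, read 1.37 and 2.88 in the abh1 pair and 2.75 and 0.556 in the Col-0_CHX pair. GBF4 had 1.18 and 1.12 against 0.604 and 1.1, and AREB3 had 1.32 and 1.02 against 1.76 and 1.06. FUS3, a B3 regulator of seed maturation, was listed in both abh1 libraries at 1 and 1.19 and in neither Col-0_CHX library. LEC2, another such regulator, was listed in abh1 replicate 1 alone, at 0.167. The seed storage gene SESA1 was listed in the Col-0_CHX libraries at 0.939 and 0.870 and in neither abh1 library. These loci were chosen after their values were seen.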
